A study of Mus musculus with 46 samples.

Results

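The genes described here are 39 genes of glucose use, out of 57010 genes counted in each library, and were taken by symbol from a fixed list. They comprise the glucose carriers, the enzymes that turn glucose into pyruvate and lactate, the lactate and pyruvate carriers, pyruvate dehydrogenase with its kinases and phosphatase, and the enzymes that build and break down glycogen. RNA was counted in 46 libraries of mouse heart (22) and striatum (24), in 12 groups of tissue, genotype and treatment. The mutant mice were HrDR5/DR5, homozygous for an allele of the hairless gene Hr that lacks a single nucleotide, and the others were wild type (WT). Mice of each genotype received propylthiouracil (PTU), which blocks hormone synthesis, in a low-iodine diet for 15 days followed by 24 hours of thyroid hormone (PTU+TH), or the PTU diet alone for 15 days (PTU), or no treatment (untreated). All were adults, and a closer age is not given in the sources used here. Every group held 4 libraries except the mutant PTU and mutant untreated hearts, which held 3 each. The label of mutant PTU+TH heart replicate 1 gives the 15 days without the 24 hours of TH. Nothing in the labels says whether the libraries of a group came from separate animals, so the p-values measure the spread between these libraries, which may be technical.

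Glycolysis splits glucose into pyruvate, and the pyruvate either becomes lactate or enters the mitochondrion and pyruvate dehydrogenase. The adult heart burns mostly fatty acids and lactate and keeps glucose as a reserve fuel, partly as glycogen, whereas the brain depends on glucose. Most steps have several isozymes, and muscle and nerve use different ones. Thyroid hormone sets the metabolic rate of the heart and acts through nuclear receptors that bind DNA near their target genes.

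Gene counts ran from 3.27 to 19.53 M per heart library and from 9.469 to 13.66 M per striatum library, and the 39 genes took 0.951 to 1.72% of them in heart and 0.507 to 0.72% in striatum. Mutant untreated heart replicate 2 was the shallowest library and had 31.3% of its uniquely aligned reads outside genes. It stood apart from mutant untreated replicates 1 and 3 in Pdha1 (2670 CPM, against 878 and 1071 CPM), Gapdh (163 CPM, against 556 and 369 CPM) and Ugp2 (105 CPM, against 239.6 and 226 CPM). CPM stands here for a gene's share of the counts of a library, scaled between the libraries of a tissue (TMM). Replicate 1 of the 3 WT heart groups also differed from its group in many of these genes, and the counts of the 39 genes that rest on these libraries are given with and without them. Summed cardiomyocyte markers lay between 32376 and 79268 CPM in the hearts, where all 8 markers on that list were tested, and summed neuron markers at 0.927 to 5.08 CPM. Summed atrial markers had medians of 175, 186 and 135 CPM in WT PTU+TH, mutant PTU and mutant PTU+TH hearts. The highest library of these groups was at 1716, 1896 and 1300.3 CPM, in that order. In WT untreated, WT PTU and mutant untreated hearts the atrial sums lay between 96.1 and 346 CPM. The part of atrial tissue in the changes below was not tested. Hr, the gene that carries the allele, averaged 16.2 ± 3.15 CPM in mutant PTU+TH hearts and 75.7 ± 5.66 CPM in WT PTU+TH hearts (SD, n = 4 each; log2 difference -2.22 ± 0.321 (SE), adjusted p = 0.00675 by edgeR), and was not called between untreated or PTU hearts of the genotypes. All 7 striatal projection neuron markers were lower in untreated WT heart than in untreated WT striatum. In bulk tissue, fewer cells of a type and less RNA per cell cannot be told apart. A marker sum follows the most abundant genes of its list and can go against the others. For the skeletal muscle list, the median log2 change of the 4 tested genes in WT PTU+TH over PTU hearts was 0.53. The median sums were 1989.8 CPM with PTU+TH and 2168 CPM with PTU. That list held Ckm and the adipocyte list Fabp4, and their sums are not read here as amounts of skeletal muscle or fat.

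The start regions of 4 genes are shown because these genes changed in opposite directions after TH in WT hearts. Gbe1, the glycogen branching enzyme, and Slc16a1, the lactate and pyruvate carrier MCT1, rose. The glucose carrier Slc2a1 (GLUT1) and Ldha, a subunit of lactate dehydrogenase, fell. Each sequence spans 250 bases before to 50 bases after the annotated start on the plus strand of GRCm38.p6, from RefSeq, at chr16:70313699-70313998 for Gbe1, chr3:104638414-104638713 for Slc16a1, chr4:119108495-119108794 for Slc2a1 and chr7:46845554-46845853 for the first of the annotated starts of Ldha. Capitals mark ACGTG, the core of the hypoxia response element, read on either strand, together with the AGGTCA half-site of nuclear receptors, which none of the 4 holds.
Gbe1: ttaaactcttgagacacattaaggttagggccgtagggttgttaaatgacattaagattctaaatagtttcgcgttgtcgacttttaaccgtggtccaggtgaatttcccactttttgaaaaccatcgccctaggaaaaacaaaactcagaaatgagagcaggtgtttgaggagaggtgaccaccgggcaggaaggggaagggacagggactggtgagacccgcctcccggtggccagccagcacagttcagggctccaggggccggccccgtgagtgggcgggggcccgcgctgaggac
Slc16a1: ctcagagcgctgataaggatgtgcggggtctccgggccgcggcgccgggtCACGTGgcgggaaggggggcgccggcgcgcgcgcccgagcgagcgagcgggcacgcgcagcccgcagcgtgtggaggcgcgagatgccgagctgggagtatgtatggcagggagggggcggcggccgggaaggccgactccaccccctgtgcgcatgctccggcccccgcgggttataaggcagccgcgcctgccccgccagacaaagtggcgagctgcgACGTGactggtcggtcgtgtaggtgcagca
Slc2a1: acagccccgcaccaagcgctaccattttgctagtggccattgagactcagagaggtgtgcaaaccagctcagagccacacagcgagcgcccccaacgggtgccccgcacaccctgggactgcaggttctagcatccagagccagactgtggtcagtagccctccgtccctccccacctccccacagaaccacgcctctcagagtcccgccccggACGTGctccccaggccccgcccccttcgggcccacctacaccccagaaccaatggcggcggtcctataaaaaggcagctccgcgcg
Ldha: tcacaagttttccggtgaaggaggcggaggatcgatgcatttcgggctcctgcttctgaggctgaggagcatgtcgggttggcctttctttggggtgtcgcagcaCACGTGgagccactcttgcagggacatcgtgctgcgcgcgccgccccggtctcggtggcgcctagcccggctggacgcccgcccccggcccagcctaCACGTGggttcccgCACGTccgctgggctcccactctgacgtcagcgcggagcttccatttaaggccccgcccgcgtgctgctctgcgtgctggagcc
ACGTG also lies within the E-box CACGTG, which the Slc16a1 and Ldha windows hold. Over the 36 genes matched to at least 1 window, AGGTCA stood in 9 of 53 windows (17%), against 16.3% of all 32851 windows in the table. ACGTG stood in 24 of 53 (45.3%), against 19.6% of all windows, and CACGTG in 5 of 53 (9.43%), against 7.15%. Some windows of the same gene overlap, as for Aldoa. By gene, AGGTCA stood in a window of 8 of the 36, ACGTG of 20 and CACGTG of 5. The direct repeat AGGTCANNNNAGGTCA was in none of the 53 windows and in 0.0152% of all windows. These matches describe letters in a window, not binding.

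The leading isozyme differed between untreated WT heart and untreated WT striatum for the glucose carriers, hexokinase, enolase and, between Pygm and Pygb, glycogen phosphorylase, as the plot of untreated WT levels shows. Of the 39 genes, 27 were higher and 10 lower in untreated WT heart than in untreated WT striatum, where 77.6% of all 15016 genes tested were called (36.8% higher and 40.8% lower). A call means a Benjamini-Hochberg adjusted p below 0.05 in edgeR's quasi-likelihood test, adjusted over every gene of the fit. The median log2 difference of the 39 genes was 1.88, against -0.10 for all genes. The files of the tissues carry different set names, so tissue and library set cannot be told apart. Levels in the next paragraphs are CPM per kilobase of exon, scaled over both tissues, so that genes can be compared with each other.

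**Figure D1:**
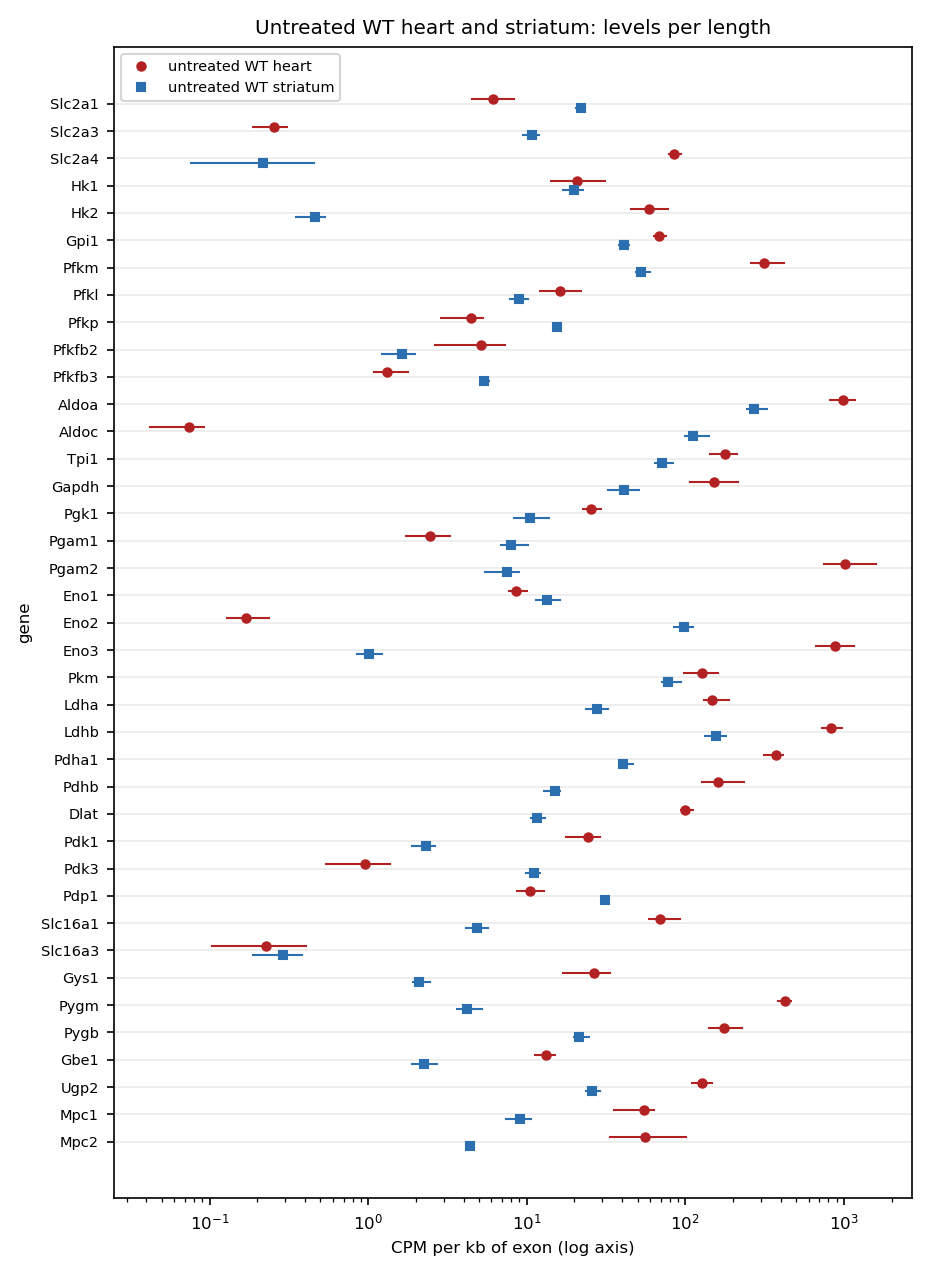
Levels of the 39 genes in untreated WT heart (red circles, upper) and untreated WT striatum (blue squares, lower), in CPM per kb of exon on a log axis, with points for means of 4 libraries and bars from the lowest to the highest library. Slc2a4, Eno3, Pygm and Pgam2 lie far to the right in heart, and Aldoc, Eno2 and Slc2a3 in striatum.

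Among the glucose carriers, Slc2a4 (GLUT4), the insulin-regulated carrier of muscle, was at 93.4, 81.8, 78.7 and 86.6 CPM per kb in the 4 hearts, against 0.174, 0.0764, 0.459 and 0.16 in the 4 striata. Slc2a3 (GLUT3), the carrier of neurons, was at 0.279, 0.247, 0.187 and 0.309 in heart, against 11.1, 10.6, 9.45 and 12 in striatum. Slc2a1, the carrier of most cells and of the blood-brain barrier, averaged 6.09 ± 1.66 in heart and 22.1 ± 1.35 in striatum (SD, n = 4 each), a log2 difference of -1.87 ± 0.191 (SE; adjusted p = 1.14e-06). No carrier level overlapped between the tissues. Slc2a4 made up 93.1 ± 1.28% of the 3 carriers per length in heart and 0.677 ± 0.568% in striatum.

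Hexokinase, which traps glucose in the cell, was mainly Hk2 in heart and Hk1 in striatum. Hk2 averaged 59.1 ± 14 CPM per kb in heart and 0.462 ± 0.0784 in striatum, a log2 difference of 6.99 ± 0.255 (adjusted p = 6.35e-11). Hk1 averaged 20.9 ± 7.25 in heart and 19.8 ± 2.6 in striatum (log2 difference 0.08 ± 0.224, adjusted p = 0.757), and the libraries overlapped. Phosphofructokinase, the committed step of glycolysis, was led by Pfkm in both tissues, at 93.8 ± 0.192% of Pfkm, Pfkl and Pfkp in heart and 68.1 ± 2.27% in striatum. Pfkp was lower in heart (4.46 ± 1.13) than in striatum (15.6 ± 0.705). Of the enzymes that set the level of its activator, Pfkfb2 was higher in heart (log2 difference 1.68 ± 0.298) and Pfkfb3 lower (-2.06 ± 0.182).

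In the lower part of glycolysis, several isozymes were far apart between the tissues. Aldoc, the aldolase of astrocytes, was at 0.0744 ± 0.0224 CPM per kb in heart and 112 ± 19.9 in striatum, and Aldoa at 987 ± 142 in heart and 273 ± 36.7 in striatum. The muscle enolase Eno3 was at 1152, 669, 700.0 and 999 in the hearts, against 1.09, 1.22, 0.918 and 0.855 in the striata. The neuronal enolase Eno2 was at 0.134, 0.175, 0.128 and 0.238 in the hearts, against 98.7, 98.5, 85.5 and 112 in the striata. Pgam2, the muscle phosphoglycerate mutase, averaged 1023 ± 383 in heart and 7.53 ± 1.64 in striatum. Gpi1, Tpi1, Gapdh, Pgk1 and Pkm were all higher in heart, by 0.71 to 1.88 on the log2 scale, and Pgam1 and Eno1 were lower. Large parts of some of these transcripts also occur in other genes: 53.9% of the 50-base words of Pgk1, 36.2% of Pgam1, 26% of Eno1, 25.8% of Pkm and 24.7% of Gapdh. Reads that align to several places were not counted, so levels of these genes are uncertain.

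Lactate dehydrogenase was mostly Ldhb, the subunit of oxidative tissues, in both tissues, at 85 ± 1.38% of Ldha and Ldhb in heart and 84.9 ± 2.52% in striatum. The carrier Slc16a1 averaged 69 ± 16.3 CPM per kb in heart and 4.86 ± 0.676 in striatum. Slc16a3 (MCT4), which exports lactate from glycolytic muscle, was low in both, at 0.227 ± 0.128 in heart and 0.292 ± 0.0991 in striatum, and was not called (adjusted p = 0.405). The pyruvate carrier genes Mpc1 and Mpc2 and the pyruvate dehydrogenase genes Pdha1, Pdhb and Dlat were higher in heart by 2.61 to 3.68. Of the 2 kinase genes among the 39, whose products inactivate the complex, Pdk1 made up 95.9 ± 2.28% of Pdk1 and Pdk3 in heart and 17.1 ± 0.955% in striatum. Of the other kinase genes, Pdk2 averaged 429.7 ± 91.3 CPM in heart and 73.5 ± 9.59 CPM in striatum, and Pdk4 296 ± 96.1 CPM in heart and 11.5 ± 1.11 CPM in striatum, as shares of the counts scaled within each tissue and not per length. The activating phosphatase Pdp1 was lower in heart, at 10.5 ± 1.78 against 31.4 ± 1.01 in striatum.

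Every glycogen gene among the 39 was higher in heart. Pygm, the muscle glycogen phosphorylase, averaged 425 ± 38.7 CPM per kb in heart and 4.23 ± 0.765 in striatum, and the brain form Pygb 175 ± 36.7 in heart and 21.4 ± 2.25 in striatum. Glycogen synthase Gys1 averaged 26.4 ± 7.4 in heart and 2.08 ± 0.242 in striatum. Gbe1 averaged 13.3 ± 1.76 in heart and 2.24 ± 0.366 in striatum, and Ugp2, which makes the UDP-glucose that feeds glycogen synthesis, 128 ± 14.7 in heart and 25.8 ± 2.51 in striatum.

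Aldoc, at under 1 CPM in every heart, was not tested in heart, which left 38 genes. After 24 hours of TH, 10 of the 38 genes differed between PTU+TH and PTU hearts of WT mice, 6 higher and 4 lower (26.3%), where 11.4% of all 14156 genes tested were called (5.81% higher and 5.59% lower). Log2 changes are given ± SE from here on. The median log2 change of the 38 was -0.03, as it was for all genes. The genes that rose were Gbe1, Hk2, Slc16a1, Pfkp and the pyruvate dehydrogenase subunit genes Pdhb and Dlat. Those that fell were Slc2a1, Hk1, Ldha and Pdk1. Gapdh, Pkm and the 3 enolases, further down glycolysis, were not called. Without replicate 1 of all 3 WT groups, an alternative tried after seeing the data, 7 rose and 4 fell, where 14.7% of all genes were called. Pgk1 and Mpc2 were called there but not with all libraries, so not all of the 6 higher genes kept their call. The count was 5 without PTU+TH replicate 2 and 6 without PTU replicate 3. Summed blood markers were at 494 to 1794 CPM in WT PTU+TH hearts, against 211 to 898 CPM in WT PTU hearts, with none of 6 called, and their part in these changes was not tested. The values that follow are in CPM. Overlap between libraries is described mostly for genes called on those same libraries, so a lack of it is no separate support. The share of all genes without overlap is not given here.

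Gbe1 was at 67.7, 96.1, 97.3 and 94.9 CPM in WT PTU+TH hearts, against 29.2, 31.1, 39.9 and 42.1 CPM in WT PTU hearts and 45.2, 57.8, 60.4 and 49.2 CPM in WT untreated hearts. The 3 groups did not overlap. The log2 change of PTU+TH over PTU was 1.32 ± 0.166 (SE; adjusted p = 7.04e-06), and it was called whichever single library was left out. PTU+TH hearts also exceeded untreated hearts by 0.74 ± 0.164 (adjusted p = 0.0166), the only one of the 38 genes called there, where 2.03% of all genes were (1.00% higher and 1.03% lower). That call was lost without untreated replicate 4 or PTU+TH replicate 2, 3 or 4 (changes of 0.70 to 0.71, adjusted p up to 0.0657), and the count there was 2 without untreated replicate 1 or 3.

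Slc16a1 was at 211, 255, 293 and 308 CPM in WT PTU+TH hearts, against 167, 131, 187 and 188 CPM in WT PTU hearts (log2 change 0.66 ± 0.165, adjusted p = 0.00907). The groups did not overlap, and untreated hearts, at 307, 208, 196 and 200.4 CPM, overlapped the PTU+TH hearts. Slc2a1 was at 11.1, 9.34, 11.4 and 11.1 CPM with PTU+TH, against 22.8, 16.4, 22.4 and 22.4 CPM with PTU (-0.97 ± 0.178, adjusted p = 0.000641). All PTU+TH hearts were below all PTU hearts, and below the untreated hearts at 21.7, 16.3, 11.8 and 13.9 CPM. Ldha was at 361, 291, 303 and 304 CPM with PTU+TH, against 591, 376, 435 and 391 CPM with PTU (-0.51 ± 0.157, adjusted p = 0.0354). The call was lost on leaving out any one of 5 of the 8 libraries (changes of -0.53 to -0.35, adjusted p up to 0.123), of which PTU replicate 1 was the highest Ldha library.

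Hk2, the insulin-responsive hexokinase of muscle, was at 296, 331, 356 and 389 CPM with PTU+TH, against 86.6, 175, 216 and 274 CPM with PTU in WT hearts (0.87 ± 0.234, adjusted p = 0.0157). All PTU+TH hearts were above all PTU hearts. Hk1 moved the other way, at 116 to 155 CPM with PTU+TH, against 142 to 263 CPM with PTU, with overlapping libraries (-0.66 ± 0.213, adjusted p = 0.0455). Its call was lost on leaving out any one library other than PTU replicate 1 (adjusted p up to 0.143). Pfkp, a minor phosphofructokinase of heart, was at 53.2 to 64.3 CPM with PTU+TH, against 27.8 to 47 CPM with PTU (0.65 ± 0.208, adjusted p = 0.0453), and its call was lost on leaving out any one library other than PTU replicate 2 (adjusted p up to 0.115).

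The pyruvate dehydrogenase genes Pdhb and Dlat rose, and the kinase gene Pdk1 fell. Pdhb was at 457, 515, 487 and 486 CPM with PTU+TH, against 406, 229, 223 and 229 CPM with PTU in WT hearts (0.84 ± 0.216, adjusted p = 0.0112). PTU replicate 1 stood apart from the other PTU hearts, and all 4 were below the PTU+TH hearts. Dlat was at 318, 412, 387 and 416 CPM with PTU+TH, against 314, 244, 249.7 and 253 CPM with PTU (0.53 ± 0.14, adjusted p = 0.0135), and its call was lost without PTU replicate 4 or PTU+TH replicate 2 (0.50 in both, adjusted p up to 0.0506). Pdk1 was at 109, 139, 158 and 154 CPM with PTU+TH, against 205, 209, 243 and 219 CPM with PTU (-0.64 ± 0.178, adjusted p = 0.0185). Its groups did not overlap, and its call was lost without PTU replicate 3 or PTU+TH replicate 1 or 2 (adjusted p up to 0.0711). Pdha1, at 756 to 964 CPM with PTU+TH and 861 to 1063 CPM with PTU, was not called.

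**Figure D2:**
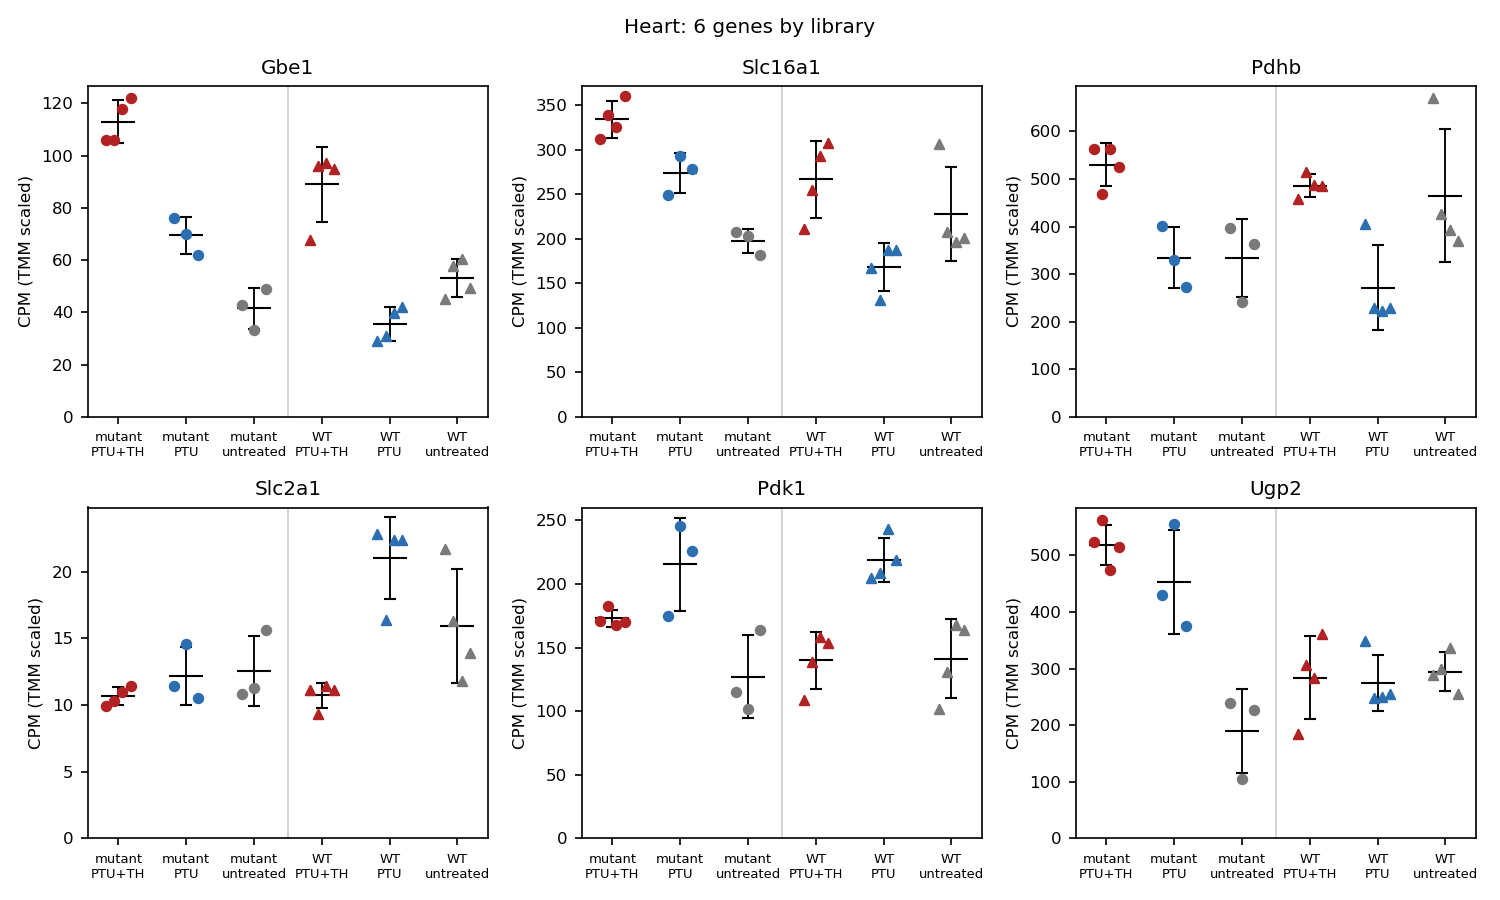
CPM of Gbe1, Slc16a1, Pdhb, Slc2a1, Pdk1 and Ugp2 in each heart library, with mutant groups (circles) left of WT groups (triangles) and PTU+TH, PTU and untreated from left to right within each genotype. Bars give mean and SD of 3 or 4 libraries. The 4 WT PTU hearts hold Gbe1 at 29.2 to 42.1 CPM, a range shared by mutant untreated replicate 2 at 33.2 CPM, and the 4 mutant PTU+TH hearts are the highest.

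With PTU alone, 1 of the 38 genes rose and 3 fell in WT hearts against untreated hearts, where 4.90% of all genes tested were called (1.88% higher and 3.02% lower). This comparison shares the PTU libraries with the one above, so their directions are not independent. Pdhb fell to 406, 229, 223 and 229 CPM in WT PTU hearts, against 671, 426, 392 and 370.3 CPM in WT untreated hearts (-0.77 ± 0.215, adjusted p = 0.0378), with overlap through PTU replicate 1. Mpc2, a subunit of the mitochondrial pyruvate carrier, was at 255, 136, 114 and 128 CPM with PTU, against 551, 294, 185 and 194 CPM untreated (-0.95 ± 0.273, adjusted p = 0.0449), and replicate 1 was the highest in both groups. Gbe1, whose values stand above, fell by 0.58 ± 0.164 on the log2 scale (adjusted p = 0.041). Pdk1 rose to 205, 209, 243 and 219 CPM with PTU, against 102, 131, 168 and 164 CPM untreated (0.63 ± 0.178, adjusted p = 0.0407), with no overlap. The count rested on single libraries: none of the 38 was called without untreated replicate 2 or PTU replicate 2 or 3, 1 without PTU replicate 4, 2 without untreated replicate 1, and 6 without PTU replicate 1. Without replicate 1 of all 3 WT heart groups, 1 rose and 4 fell, where 5.71% of all genes were called. The gene that rose there was Hk1 (0.70 with all libraries, adjusted p = 0.0573), and Pdk1 was not called. Dlat (-0.46 with all libraries, adjusted p = 0.0612) was among those that fell. Each of the 4 calls made with all libraries was lost on leaving out any one of 5 or 6 libraries (adjusted p up to 0.255). The change of Mpc2 was -0.50 without untreated replicate 1. Summed blood markers were at 211 to 898 CPM with PTU, against 1085 to 2759.9 CPM untreated, with 3 of 6 lower, and summed macrophage markers at 59.2 to 75.1 CPM with PTU, against 99.9 to 155 CPM untreated, with 2 of 8 lower. Their part in these changes was not tested.

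**Figure D3:**
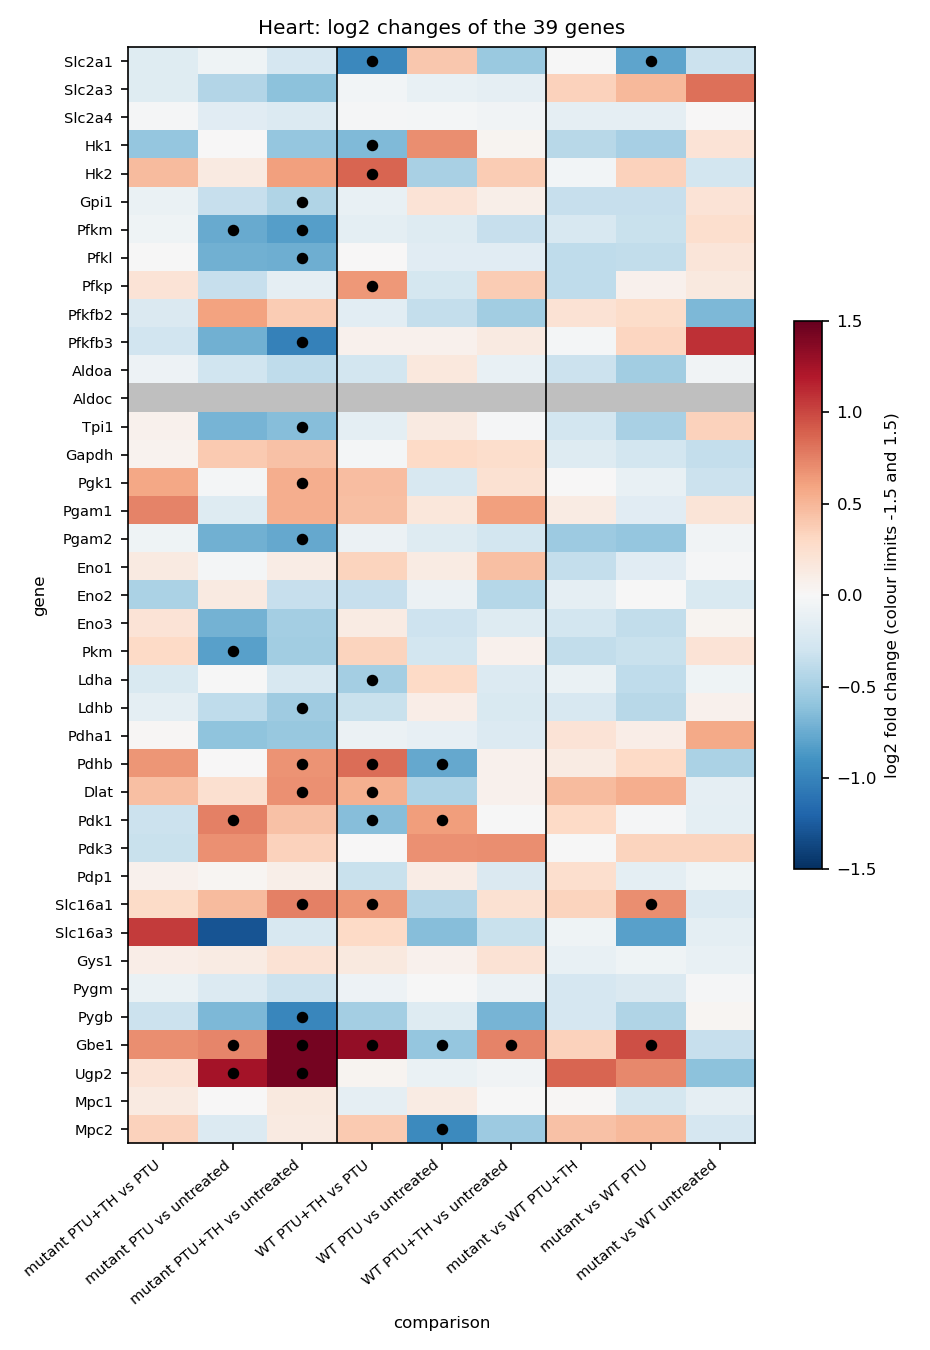
Log2 fold changes of the 39 genes (from top to bottom in the order of the pathway) in 9 heart comparisons (columns), with red for higher and blue for lower in the group named before "vs", and colour limits at -1.5 and 1.5. Black dots mark called genes, and the grey band is Aldoc, which was not tested in heart. Gbe1 has a dot in 6 of the 9 columns.

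In mutant PTU against mutant untreated hearts, 3 of 38 genes rose and 2 fell, where 13.8% of all genes were called (6.24% higher and 7.54% lower). Ugp2 was at 431, 555 and 375 CPM in mutant PTU hearts, against 239.6, 105 and 226 CPM in mutant untreated hearts (1.25 ± 0.26, adjusted p = 0.00793). Gbe1 was at 76.3, 70.1 and 61.9 CPM with PTU, against 42.8, 33.2 and 48.8 CPM untreated (0.73 ± 0.192, adjusted p = 0.0199), whereas it fell with PTU in WT hearts. Pdk1 was at 175, 246 and 226 CPM with PTU, against 115, 102 and 164 CPM untreated (0.76 ± 0.207, adjusted p = 0.0229). None of these 3 overlapped between the groups. The muscle phosphofructokinase Pfkm was at 540.4, 523 and 573 CPM with PTU, against 628, 1111 and 1036 CPM untreated (-0.76 ± 0.209, adjusted p = 0.024), and Pkm, the pyruvate kinase of muscle and brain, at 339, 294 and 307 CPM with PTU, against 377, 703 and 577 CPM untreated (-0.82 ± 0.217, adjusted p = 0.0205). In both, untreated replicate 1 was close to the PTU hearts. No gene of the 38 was called without mutant untreated replicate 2 or mutant PTU replicate 2. Over all genes, 0.590% were called without mutant untreated replicate 2, against 13.8% with all libraries. Without mutant untreated replicate 2 the changes of the 5 genes were 0.97 for Ugp2, 0.61 for Gbe1, 0.64 for Pdk1, -0.60 for Pfkm and -0.60 for Pkm. The count was 13 without mutant untreated replicate 1, 3 without mutant untreated replicate 3 or mutant PTU replicate 1, and 2 without mutant PTU replicate 3. Summed macrophage markers were at 55.5 to 63.1 CPM in mutant PTU hearts, against 106 to 259 CPM in mutant untreated hearts, with 5 of 8 lower, and summed skeletal muscle markers at 1429.7 to 1575 CPM with PTU, against 1683 to 2471 CPM untreated, with 1 of 4 tested lower. Summed adipocyte markers were at 393 to 436 CPM with PTU, against 556 to 664 CPM untreated, with 0 of 4 called, and 2 of 5 fibroblast markers were lower. Their part in these changes was not tested.

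TH after PTU gave no call among the 38 genes in mutant hearts by edgeR, where 0.410% of all genes were called (0.268% higher and 0.141% lower). At an unadjusted p below 0.05 there were 6 of 38 (15.8%), against 7.11% of all genes, and DESeq2 called 1, where it called 0.846% of all genes. That gene was Gbe1, at 106, 106, 118 and 122 CPM in mutant PTU+TH hearts, against 76.3, 70.1 and 61.9 CPM in mutant PTU hearts (log2 change 0.70 ± 0.179, adjusted p = 0.0995 by edgeR). The groups did not overlap. For the log2 change of Gbe1 with TH, mutant minus WT was -0.62 ± 0.239 (adjusted p = 0.716), which missed the threshold. No gene of the 38 was called for such a difference by edgeR or DESeq2, where edgeR called 0.290% of all genes (0.0141% higher and 0.276% lower) and DESeq2 0.406%. At an unadjusted p below 0.05 there were 2 of 38 (5.26%), against 4.46% of all genes. The larger number of calls in WT hearts is therefore not shown to be a genotype difference.

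Against untreated hearts, mutant PTU+TH hearts differed in 14 of 38 genes, 6 higher and 8 lower, where 22.0% of all genes were called (10.7% higher and 11.3% lower). The median log2 change of the 38 was -0.22, against -0.02 for all genes. Among the higher ones, Gbe1 was at 106, 106, 118 and 122 CPM with PTU+TH, against 42.8, 33.2 and 48.8 CPM untreated (1.43 ± 0.185, adjusted p = 0.000109). Ugp2 was at 524, 562, 475 and 515 CPM with PTU+TH, against 239.6, 105 and 226 CPM untreated (1.44 ± 0.25, adjusted p = 0.000999). Both glycogen-building genes were at more than the highest untreated value in every PTU+TH heart. Slc16a1 was at 312, 339, 326 and 360.3 CPM with PTU+TH, against 208, 203 and 182 CPM untreated (0.76 ± 0.182, adjusted p = 0.00648). Dlat was at 544, 521, 539 and 523 CPM with PTU+TH, against 369, 273 and 348 CPM untreated (0.69 ± 0.154, adjusted p = 0.00436). The glycolytic kinase Pgk1 (0.55 ± 0.174) and Pdhb (0.67 ± 0.235) also rose, with no overlap.

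The genes that were lower were a phosphorylase and enzymes spread along glycolysis. Pygb was at 267, 336, 393 and 298 CPM in mutant PTU+TH hearts, against 473, 608 and 837 CPM in mutant untreated hearts (-0.98 ± 0.21, adjusted p = 0.00331). Pfkm was at 458, 510.3, 621 and 496 CPM with PTU+TH, against 628, 1111 and 1036 CPM untreated (-0.83 ± 0.193, adjusted p = 0.00558). Pgam2 was at 378, 307, 420.3 and 345 CPM with PTU+TH, against 522, 811 and 529 CPM untreated (-0.77 ± 0.246, adjusted p = 0.028). None of these 3 overlapped. Gpi1 (-0.45 ± 0.145), Pfkl (-0.73 ± 0.235), Pfkfb3 (-1.01 ± 0.339), Tpi1 (-0.64 ± 0.23) and Ldhb (-0.53 ± 0.175) were also lower, and Pfkl and Tpi1 overlapped between the groups. The count was 6 without mutant PTU+TH replicate 1, 7 without replicate 4 and 8 without replicate 2 of that group, 9 without mutant untreated replicate 3, and 16 without mutant untreated replicate 1. Without mutant untreated replicate 2 the calls were 6: Gbe1 (1.29), Ugp2 (1.14), Slc16a1 (0.76), Dlat (0.56), Pfkm (-0.69) and Pygb (-1.03). These 6 were called whichever single library was left out. Each of the other 8 lost its call on leaving out any one of 3 to 6 libraries, and the change of Tpi1 was -0.27 without mutant untreated replicate 2. Summed skeletal muscle markers were at 1407 to 1753 CPM in mutant PTU+TH hearts, against 1683 to 2471 CPM in mutant untreated hearts, with 0 of 4 tested markers higher and 1 lower. Summed macrophage markers were at 57.7 to 87 CPM with PTU+TH, against 106 to 259 CPM untreated, with 5 of 8 lower, and summed adipocyte markers at 386 to 439.9 CPM with PTU+TH, against 556 to 664 CPM untreated, with 1 of 4 lower. Summed cardiomyocyte markers, at 39052 to 43658 CPM with PTU+TH, against 40526 to 79268 CPM untreated, had 1 of 8 higher and 3 lower, and summed smooth muscle and pericyte markers, at 722 to 870.5 CPM with PTU+TH, against 794 to 1124 CPM untreated, had 1 of 5 higher and 2 lower. Their part in these changes was not tested.

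Genotype was compared directly at each treatment. In PTU hearts, 3 of 38 genes were called, 2 higher and 1 lower in mutants, where 2.20% of all genes were (1.55% higher and 0.650% lower). Gbe1 was at 76.3, 70.1 and 61.9 CPM in mutant PTU hearts, against 29.2, 31.1, 39.9 and 42.1 CPM in WT PTU hearts (0.97 ± 0.175, adjusted p = 0.00356), and was called whichever single library was left out. Slc16a1 was at 249.6, 293 and 279 CPM in mutant PTU hearts, against 167, 131, 187 and 188 CPM in WT PTU hearts (0.70 ± 0.177, adjusted p = 0.0362). Slc2a1 was at 11.4, 14.6 and 10.5 CPM in mutants, against 22.8, 16.4, 22.4 and 22.4 CPM in WT (-0.79 ± 0.196, adjusted p = 0.0333). The genotypes did not overlap for any of the 3, which adds no separate support since the calls came from the same libraries. The calls of Slc16a1 and Slc2a1 were each lost on leaving out any one of 6 of the 7 libraries (changes of 0.60 to 0.77 and of -0.93 to -0.70, adjusted p up to 0.162 and 0.187). The count was 1 without WT PTU replicate 3 or any one of the mutant libraries. Without replicate 1 of all 3 WT groups it was 8, with 6 higher and 2 lower, where 5.69% of all genes were called. Summed skeletal muscle markers were at 1429.7 to 1575 CPM in mutant PTU hearts, against 1816 to 2956 CPM in WT PTU hearts, with 0 of 4 called. Mitochondrial genes took 39.5 to 48% of the counts in mutant PTU hearts, against 26.2 to 36.6% in WT PTU hearts. The part of either in these differences was not tested.

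The PTU response itself differed between genotypes for Gbe1 alone among the 38, by 1.31 ± 0.252 on the log2 scale in mutant minus WT (adjusted p = 0.0154), where 0.579% of all genes were called (0.480% higher and 0.0989% lower). Gbe1 was higher with PTU than untreated in mutant hearts and lower with PTU than untreated in WT hearts. The call was lost when mutant untreated replicate 2 was left out (1.19, adjusted p = 0.0522), and likewise on leaving out replicate 3 of that group (1.44, adjusted p = 0.0511) or replicate 1 of the mutant PTU hearts (1.24, adjusted p = 0.078). The count was 5 without mutant untreated replicate 1, 2 without WT PTU replicate 1, and 4 without replicate 1 of all 3 WT groups. Over all genes, 0.243% were called without mutant untreated replicate 2 and 2.85% without replicate 1 of all 3 WT groups. For Ugp2 the difference was 1.34 ± 0.34 (adjusted p = 0.071 by edgeR and 0.00938 by DESeq2), and Ugp2 was at 349.5, 248, 249 and 255 CPM in WT PTU hearts, against 288, 299, 337 and 255 CPM in WT untreated hearts. Beside these values, Myh6, a myosin heavy chain gene that TH is known to induce in heart, averaged 8687 ± 4543 CPM in mutant PTU hearts (n = 3) and 170.3 ± 215 CPM in WT PTU hearts (SD, n = 4), a log2 difference of 5.67 ± 0.699 (adjusted p = 6.96e-05). The response of Myh6 to PTU also differed, by 5.19 ± 0.914 (adjusted p = 0.0123). Myh6 was 1 of 5 genes listed as checks of TH action. Of the 5, 3 were called between mutant and WT PTU hearts, all higher in mutants, and Myh6 alone for the response. The part of the check genes in the values of Gbe1 was not tested. Untreated mutant and WT hearts gave no call among the 38 or over all genes (0%) by edgeR, and none among the 38 by DESeq2, which called 0.00876% of all genes. At an unadjusted p below 0.05 there were 4 of 38 (10.5%), against 5.81% of all genes. PTU+TH hearts gave none either (0.0141% of all genes, 0.00706% in each direction), with 6 of 38 (15.8%) at an unadjusted p below 0.05, against 12.5% of all genes. DESeq2 called 2, where it called 1.67% of all genes: Ugp2 (0.87 ± 0.223, edgeR adjusted p = 0.162) and Dlat (0.47 ± 0.14, edgeR adjusted p = 0.216). Over all heart comparisons, 22 of the 38 genes were called at least once and 16 never: Aldoa, Eno1, Eno2, Eno3, Gapdh, Gys1, Mpc1, Pdha1, Pdk3, Pdp1, Pfkfb2, Pgam1, Pygm, Slc16a3, Slc2a3 and Slc2a4. The log2 changes of these 16 ran from -1.29 (Slc16a3, mutant PTU against untreated) to 1.05 (Slc16a3, mutant PTU+TH against PTU).

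Taking Hk1 and Hk2 together per length, Hk2 made up 73.2 to 80.7% of the pair in WT PTU+TH hearts, 46.5 to 59.8% in WT PTU hearts and 71.2 to 79.1% in WT untreated hearts. The WT PTU hearts did not overlap with either group, with means of 78% in PTU+TH, 53.9% in PTU and 74.1% in untreated hearts. An exact two-sided permutation test gave p = 0.0286 for PTU+TH against PTU and for PTU against untreated, the smallest p that 4 against 4 libraries allow (adjusted p = 0.286 over 70 isozyme tests in heart). In mutant hearts the mean share was 82.4% with PTU+TH, 69% with PTU and 67% untreated. PTU+TH against PTU gave p = 0.0571, the smallest that 4 against 3 libraries allow, and PTU against untreated gave p = 0.4, both by the same exact test. Of the 70 heart tests 5 had p below 0.05. Tests with a group of 3 libraries could not reach a p below 0.05. With these group sizes no test could reach an adjusted p below 0.05, so the adjusted values cannot decide whether a share changed. Without replicate 1 of all 3 WT groups, the mean Hk2 share was 79.6% with PTU+TH, 56.3% with PTU and 72.5% untreated, and the 3 groups did not overlap. The others of these 5 were Slc2a4 among the carriers (94.9% with PTU+TH and 90.9% with PTU, WT), Pygm of Pygm and Pygb (78.8% with PTU+TH and 73.5% with PTU, WT), and Hk2 in PTU+TH hearts (82.4% in mutant and 78% in WT).

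**Figure D4:**
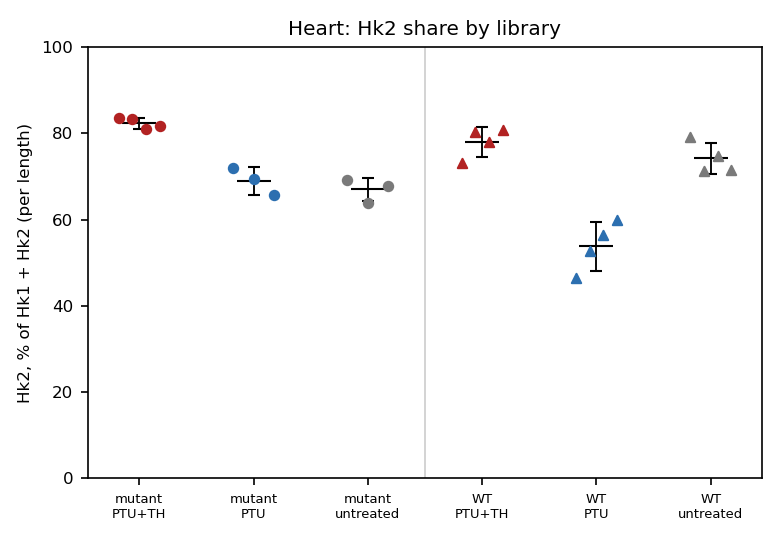
Hk2 as a percent of Hk1 and Hk2 per length in each heart library, with mutant groups (circles) left of WT groups (triangles), and mean and SD as bars. The 4 WT PTU hearts lie between 46.5 and 59.8%, below every other heart library.

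In striatum none of the 39 genes was called in any of the 11 comparisons by edgeR. In 10 of them no gene of the 15670 tested was called either, and 0.459% were in WT PTU+TH against WT PTU (0.383% higher and 0.0766% lower). In that comparison 9 of the 39 (23.1%) had an unadjusted p below 0.05, against 12.7% of all genes, and DESeq2 called 2, where it called 2.01% of all genes. In the other 10, between 0 and 5 of the 39 (0 to 12.8%) had an unadjusted p below 0.05, against 1.5 to 10.1% of all genes, and DESeq2 called none of the 39 and at most 0.170% of all genes. Pdp1, the phosphatase that activates pyruvate dehydrogenase, was at 289, 200.3, 158 and 197 CPM in WT PTU+TH striata, against 127, 139, 129 and 97.9 CPM in WT PTU striata (0.77 ± 0.2, adjusted p = 0.0777 by edgeR and 0.0148 by DESeq2). Pdhb was at 84.7, 88, 69.7 and 94.3 CPM with PTU+TH, against 66, 65.7, 65.1 and 62.6 CPM with PTU (0.38 ± 0.0978, adjusted p = 0.0779 by edgeR and 0.0123 by DESeq2). Neither gene overlapped between these groups, and in untreated WT striata Pdp1 was at 188, 182, 187 and 192 CPM and Pdhb at 82.5, 65.7, 77.7 and 81.1 CPM. In mutant striata Pdp1 was at 149, 169, 192 and 184 CPM with PTU+TH, against 214, 166, 109 and 92.2 CPM with PTU, which overlapped. Gbe1 was at 11.4 to 20.1 CPM in WT PTU+TH striata, against 9.95 to 14.6 CPM in WT PTU striata (0.29 ± 0.181, adjusted p = 0.533). Over the 6 striatum groups, the highest group mean of a gene was 1.07 to 1.76 times its lowest, with a median of 1.19. Over the 6 heart groups this ratio was 1.15 to 4, with a median of 1.72, and the highest ratio was that of Aldoc, at under 1 CPM in every heart. These ratios make no allowance for the spread between libraries, and those of heart include mutant untreated replicate 2, which stood apart.

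Of 87 other genes of glucose metabolism and its control, 76 were tested in heart. In WT hearts given TH after PTU, 14 rose and 5 fell (25% called, against 11.4% of all genes). Mlxipl (ChREBP, a glucose-sensing transcription factor) averaged 43.9 ± 5.44 CPM with PTU+TH and 8.84 ± 4.2 CPM with PTU (SD, n = 4 each; log2 change 2.32 ± 0.342, adjusted p = 5.14e-05). The pyruvate dehydrogenase phosphatase Pdp2 averaged 53.2 ± 7.58 CPM with PTU+TH and 12 ± 5.79 CPM with PTU (2.16 ± 0.263, adjusted p = 5.04e-06). Pdk4, a kinase with the opposite action, averaged 598 ± 91.1 CPM with PTU+TH and 160.1 ± 54.3 CPM with PTU (1.90 ± 0.343, adjusted p = 0.000497). The phosphorylase kinase subunit Phkg1 rose by 1.85 ± 0.213, while the monocarboxylate carrier Slc16a7 (MCT2) changed by -1.62 ± 0.245. Under PTU alone, 3 rose and 9 fell in WT hearts (15.8%, against 4.90% of all genes), among them Phkg1 (-2.27 ± 0.214) and Mlxipl (-1.46 ± 0.337) lower, and Slc16a7 (1.98 ± 0.251), the liver phosphorylase Pygl (1.63 ± 0.238) and the coactivator gene Ppargc1a (1.58 ± 0.357) higher. PTU+TH against untreated WT hearts gave 3 calls (3.95%, against 2.03% of all genes), 2 higher, Pdp2 (0.97 ± 0.253) and the mitochondrial glycerol phosphate dehydrogenase Gpd2 (0.81 ± 0.198), and 1 lower, the lactate dehydrogenase of the D form, Ldhd (-0.91 ± 0.148).

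In mutant hearts 10 of the 76 rose and 8 fell with PTU against untreated (23.7%, against 13.8% of all genes). Without mutant untreated replicate 2 the count was 1 (1.32%, against 0.590% of all genes), Ldhd, which was lower (-1.11, adjusted p = 0.00829). None of the genes named next was called in that fit (adjusted p from 0.0514 to 0.105). The 6 with the largest changes were Ppargc1a (1.80 ± 0.419), the fatty acid sensor Ppara (1.79 ± 0.503), the glycogen-targeting phosphatase subunit Ppp1r3a (1.66 ± 0.367), the kinase subunit Prkaa2 (1.47 ± 0.282) and the insulin receptor substrate Irs2 (1.40 ± 0.393), all higher, and the muscle fructose bisphosphatase Fbp2 (-1.42 ± 0.331), which was lower. With TH after PTU, 2 rose in mutant hearts (2.63%, against 0.410% of all genes), Pdk4 (1.75 ± 0.378, adjusted p = 0.0335) and Phkg1 (1.13 ± 0.228, adjusted p = 0.0182), and none fell. In PTU+TH against untreated mutant hearts, 15 rose and 8 fell (30.3%, against 22.0% of all genes), with Irs1 (1.64 ± 0.304), Irs2 (1.56 ± 0.376), Pck2 (-1.53 ± 0.289), Ppp1r3a (1.49 ± 0.35), Prkaa2 (1.37 ± 0.268) and Ppara (1.34 ± 0.478) changing most. In that comparison without mutant untreated replicate 2, 7 were higher and 4 lower (14.5%, against 8.15% of all genes). Ppp1r3a (1.18, adjusted p = 0.0501) and Ppara (1.29, adjusted p = 0.143) were not among them. In PTU hearts 4 were higher and 1 lower in mutants than in WT (6.58%, against 2.20% of all genes). Gpd2 averaged 22.8 ± 1.63 CPM in mutant PTU hearts (n = 3) and 8.23 ± 2.41 CPM in WT PTU hearts (SD, n = 4; 1.47 ± 0.215, adjusted p = 0.000415), and Pdp2 37.8 ± 15.1 CPM in mutant PTU hearts and 12 ± 5.79 CPM in WT PTU hearts (1.67 ± 0.274, adjusted p = 0.00149). Mlxipl (1.73 ± 0.357) and Phkg1 (1.06 ± 0.231) were also higher, and the transketolase gene Tkt lower (-0.64 ± 0.157). The PTU response itself differed for Pdp2 (1.70 ± 0.394, adjusted p = 0.0488) and Gpd2 (1.56 ± 0.312, adjusted p = 0.021), 2.63% of the 76, against 0.579% of all genes. Neither call was kept without mutant untreated replicate 2 (1.69 and 1.41, adjusted p = 0.107 and 0.0562), where 0.243% of all genes were called. None of the 71 such genes tested in striatum was called by edgeR in the 11 comparisons there. Between 0 and 15 of them had an unadjusted p below 0.05, the 15 in WT PTU+TH against WT PTU, where 12.7% of all genes had. DESeq2 called 1 there, where it called 2.01% of all genes, and none elsewhere. Between untreated WT heart and striatum, 45 of 76 were higher in heart and 18 lower (82.9%, near the 77.6% of all genes).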

How the data were processed

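RNA of heart and striatum was sequenced from CORALL libraries made from total RNA, per the labels' protocols. The authors deposited whole-number counts of reads per gene for each library, with no normalization. Bowtie2, HTSeq and the build GRCm39 are named, without versions, per the submitters' processing notes. Not given in the sources used here are the annotation release, the strand setting and any use of molecular identifiers. Each file held 57010 genes and 5 summary lines, which were left out of library sizes and tests. Reads that did not align to a unique place, 23.1 to 35.9% of all reads in heart and 12.9 to 17.3% in striatum, were not counted, so genes with near copies are uncertain. Reads outside genes were 3.4 to 31.3% of unique reads in heart and 5.32 to 14.6% in striatum.

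Groups were taken from the labels' tissue, genotype and treatment. Each tissue was fitted alone with edgeR 4.0.16 in R 4.3.3: filterByExpr with a minimum count of 10, TMM scaling, 1 coefficient per group, and the quasi-likelihood F test, with Benjamini-Hochberg adjustment over all genes tested and a threshold of 0.05. This gave 14156 genes in heart and 15670 in striatum. Untreated WT heart and striatum were fitted together over 15016 genes. The SE of a log2 fold change was its size divided by the square root of F. Unless a sentence names another tool, adjusted p-values are edgeR's. Shares of all genes called by DESeq2 are of the genes to which it gave an adjusted p. Their number differed by comparison, from 9891 in mutant against WT PTU+TH hearts to 34239 in mutant against WT untreated hearts among those looked up. The shares of the 2 tools are therefore not over the same genes. Isozyme shares were tested with two-sided exact permutation tests (Python 3.11.15, SciPy 1.17.1). Exon lengths, found for 52029 gene IDs, came from an annotation of GRCm38 and were used for levels per length. Each of the 39 symbols was matched, and of 2 IDs named Aldoa the one with more counts was used. Promoter windows came from RefSeq, GRCm38.p6. The fits were tested on simulated counts. The alternatives were DESeq2 1.42.0, its size factors within edgeR, no filter on low counts, the replicate number as a block, and leaving out each library (54 fits). No 2 libraries of a group held identical counts (66 pairs). Depth sets the counting error of each value, and the SDs hold it together with the spread between libraries.

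The 39 genes and the other gene lists were chosen with earlier results of these data known. A gene was described with its value in every library where it was called, up to the 8 with the smallest p in a comparison, or was the leading isozyme of a tissue. Of the other genes of glucose metabolism, up to 6 with the largest changes are named per comparison, except 1 gene that is not reported here.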

Additional observations from a re-analysis of the deposited data

Results flagged for a closer look

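For the genes called in a tissue by edgeR or by an alternative, 128 sets of 1 gene in 1 group of 4 libraries were examined. In 19 of them a library was far from the other 3 by Dixon's test at the 95% level. Some of the genes, such as Eno1, were called only with a library left out, and the sets share libraries. The 19 can therefore not be set against the 1 in 20 that chance alone gives. Of the 19, 14 were replicate 1 of a WT heart group. In WT PTU hearts replicate 1 was the highest for Dlat (314 CPM, others 244 to 253), Eno3 (1497, others 705 to 769), Ldhb (1313, others 929 to 980.4), Mpc2 (255, others 114 to 136), Pdhb (406, others 223 to 229), Pgam2 (750.2, others 481 to 513), Pgk1 (47, others 31.9 to 33.1), Tpi1 (530.5, others 341 to 369.7) and Ugp2 (349.5, others 248 to 255). In WT PTU+TH hearts replicate 1 was the highest for Aldoa (2669 CPM, others 1712 to 1823) and Eno1 (58.7, others 41.3 to 44) and the lowest for Gbe1 (67.7, others 94.9 to 97.3). In WT untreated hearts it was the highest for Ldha (464 CPM, others 325 to 342) and Slc16a1 (307, others 196 to 208). Mutant PTU+TH replicate 3 was the highest for Aldoa (1767 CPM, others 1520 to 1547), Eno3 (1016, others 743 to 776) and Ldhb (824, others 649 to 677). For Slc2a1, replicate 2 was the lowest in WT PTU+TH hearts (9.34 CPM, others 11.1 to 11.4) and in WT PTU hearts (16.4, others 22.4 to 22.8).

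The difference between mutant and WT hearts in the response to PTU passed edgeR's test for Gbe1 (1.31 on the log2 scale), the phosphatase gene Pdp2 (1.70) and the glycerol phosphate dehydrogenase gene Gpd2 (1.56). Without mutant untreated replicate 2 none of the 3 passed (1.19, 1.69 and 1.41, adjusted p from 0.0522 to 0.107), where 0.243% of all genes did.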

How the results depend on the processing

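The 38 called changes of single genes within tissues kept their direction under each alternative that was run. All 38 were also called by DESeq2 and with its size factors, 28 without the filter on low counts and 36 with the replicate number as a block. Without the filter, the calls lost were Pdk1 and Gbe1 in WT PTU against untreated hearts (0.66 and -0.54), Ldha and Dlat in WT PTU+TH against PTU hearts (-0.53 and 0.52), Pfkm in mutant PTU against untreated hearts (-0.71), Gpi1, Tpi1, Pgk1 and Ldhb in mutant PTU+TH against untreated hearts (-0.40, -0.59, 0.59 and -0.49) and Slc16a1 in mutant against WT PTU hearts (0.68), with adjusted p of 0.0626 to 0.396. The block lost Pfkp in WT PTU+TH against PTU hearts (0.66, adjusted p = 0.0508) and Tpi1 in mutant PTU+TH against untreated hearts (-0.64, adjusted p = 0.0649). Whether the numbers pair libraries is not known. Same-numbered libraries of different groups had a median correlation of 0.08 in heart (-0.25 to 0.60) and 0.07 in striatum (-0.69 to 0.46). With different numbers it was -0.02 in heart (-0.48 to 0.35) and -0.03 in striatum (-0.66 to 0.66). These correlations do not describe how alike the levels themselves were between libraries. In heart 23 of 51 same-numbered pairs exceeded 0.1, against 32 of 150 others, and in striatum 25 of 60, against 61 of 180. Of 283 values with 1 library left out, 163 were called and none was reversed. Of the 38 changes, 12 were called in each such fit. The 37 differences between heart and striatum were called in every alternative run.

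The count of the genes called was 2 with DESeq2 and 2 with the replicate block, against 1, in WT PTU+TH against untreated hearts. DESeq2 called 3.32% of all genes in that comparison, against 2.03% by edgeR. DESeq2 called 11, against 5, in mutant PTU against untreated hearts, where it called 19.6% of all genes, against 13.8%. It called 1, against 0, in mutant PTU+TH against PTU hearts (0.846% of all genes, against 0.410%). In mutant against WT PTU+TH hearts it called 2, against 0 (1.67% of its 9891 genes, against 0.0141% of the 14156 of edgeR). Mutant against WT untreated hearts gave 1 without the filter, against 0. Mutant against WT PTU hearts gave 5 with DESeq2 and 8 without replicate 1 of the 3 WT groups, against 3. Over all genes it gave 4.25% with DESeq2 and 5.69% without those replicates, against 2.20%. The genotype difference in the PTU response gave 4 with DESeq2, 2 without the filter and 4 without those replicates, against 1. Its shares of all genes were 2.49% with DESeq2 and 2.85% without those replicates, against 0.579%. WT PTU+TH against PTU striata gave 2 with DESeq2 and 1 without the filter, against 0. DESeq2 called 2.01% of all genes in those striata, against 0.459% by edgeR. Shares of all genes without the filter or with the block are not given here. The cause of these shifts was not tested.

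Of the other genes of glucose metabolism in heart, 7 differed between genotypes in the PTU response without replicate 1 of the 3 WT groups (9.33%), against 2. Over all genes 2.85% did in that fit, against 0.579% with all libraries. Between mutant and WT PTU hearts 8 differed without those replicates (10.7%), against 5. Over all genes 5.69% did in that fit, against 2.20% with all libraries.

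With 1 library left out at a time, the counts of the 39 genes in heart ran from 0 to 6 for WT PTU against untreated, 5 to 10 for WT PTU+TH against PTU, 0 to 2 for WT PTU+TH against untreated, 0 to 13 for mutant PTU against untreated, 6 to 16 for mutant PTU+TH against untreated, 1 to 2 for mutant against WT PTU and 0 to 5 for the genotype difference in the PTU response. In striatum they ran from 0 to 2 for WT PTU+TH against PTU. Aldoc, at 0 to 0.669 CPM in the hearts, did not pass the filter on low counts there. For Slc16a3 in heart, group means of 0.319 to 0.903 CPM had SDs of 0.137 to 0.506 CPM.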
